A study of Saccharomyces cerevisiae with 8 samples.

Results

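The mitochondrial ribosomal protein genes of Saccharomyces cerevisiae were followed across 5 strains grown with and without glycine. They were taken by symbol, as all genes named MRP, MRPL or MRPS plus a number, or RSM plus a number. The rule found 65 genes among the 5539 with a symbol and a spot. By the unified ribosomal protein names in RefSeq, 37 belong to the large subunit and 26 to the small subunit, and 2 (MRP8 and RSM22) have no such name. MRP10 and MRPL15, which meet the rule, had no spot, and neither had VAR1, the small-subunit protein gene of the mitochondrial genome. Another 13 genes of this ribosome carry symbols outside the rule (7 large, 6 small) and were kept apart.

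Each of the 8 two-colour arrays set RNA from 1 strain on minimal medium with 10 mM glycine (channel 1) against RNA from the same strain on minimal medium (channel 2), at steady state to early log phase. The bas1 (Y06015), bas2 (Y03803), gcn4 (Y00249) and shm2 (Y02669) strains came from the yeast deletion set, on 2, 2, 1 and 1 arrays, and BY4741, the parent strain of that set, was on 2. Bas1 and Bas2 are transcription factors of purine genes, Gcn4 activates amino acid synthesis genes, and SHM2 encodes a cytosolic serine hydroxymethyltransferase. The labels name no further allele, no clone number and no separate cultures, so p-values measure the spread between these arrays, which may be technical. For bas2 replicate 1 the title and description name bas2 but the source names name BY4741. The name zap1 stands in the title of BY4741 replicate 3 as well.

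Mitochondrial ribosomes translate the few mRNAs of the mitochondrial genome, which mostly encode subunits of the respiratory chain and of ATP synthase. Nearly all of their proteins are encoded in the nucleus, made in the cytosol and imported. The small subunit holds the decoding site and the large subunit joins the amino acids. In the unified names a u marks proteins found in ribosomes of all domains of life, a b those shared with bacteria and an m those known only from mitochondria. Of the members, 27 have u names, 14 have b names and 22 have m names.

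The measure is the log2 channel ratio, averaged over the spots of a gene and given relative to the array's middle gene, and it is called the ratio below. Its direction is not given in the sources used here. GCV1, a glycine cleavage gene that glycine is known to induce, stood at -6.27 and -5.27 on the BY4741 arrays, so a negative ratio is likely higher with glycine on those arrays. On bas1 replicate 1 GCV1 stood at -1.17, and on replicate 2 it had no value. GCV3, also a cleavage gene, kept the BY4741 sign on bas1 replicate 1 (-0.70, against -2.76 and -2.73) and had no value on replicate 2. SHM2 on both bas1 arrays and GCV2 on replicate 1 had the sign opposite to BY4741. SHM2 stood at 1.41 and 0.79 on the bas1 arrays, against -3.08 and -1.47 in BY4741, and GCV2, another cleavage gene, at 0.78 and -0.10, against -1.65 and -0.64. Over all spots bas1 replicate 1 ran against BY4741 replicate 1 (r = -0.304). It ran with BY4741 replicate 3 (r = 0.22) and with bas2 replicate 1 (r = 0.58). The direction of single arrays is not settled at that level, so every sign is the deposited one. Both channels of an array hold the same strain, so the ratio of a deleted gene does not show whether the gene is absent.

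All 65 members had 2 spots, and 31 had a value on all 8 arrays. The others were missing mostly on bas1 replicate 2, where 33 members had no value, and none was missing on bas1 replicate 1, bas2 replicate 1 or the BY4741 arrays. Over all genes the SD of the ratio was widest on bas1 replicate 2 (2.07) and narrowest on BY4741 replicate 3 (0.379), and centring removed array medians between -0.78 and 0.65. With 1 or 2 arrays a strain, precision is limited by their number, and no spot signal was used here. A ratio from a whole culture does not tell a change in every cell from a change in some cells.

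The members as a list lay below the middle gene on the bas1, bas2 and shm2 arrays and above it on the gcn4 array and on BY4741 replicate 1. The median over members was -0.63 on both bas1 arrays, over 65 members on replicate 1 and 32 on replicate 2, so these medians are not of the same genes. The member median was -0.40 and -0.31 on the bas2 arrays, 0.87 on the gcn4 array and -0.26 on the shm2 array. On the BY4741 arrays it was 0.52 on replicate 1 and 0.05 on replicate 3. The middle gene of each array is 0 by construction, so these medians are shifts against the other genes of the same array.

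**Figure D1:**
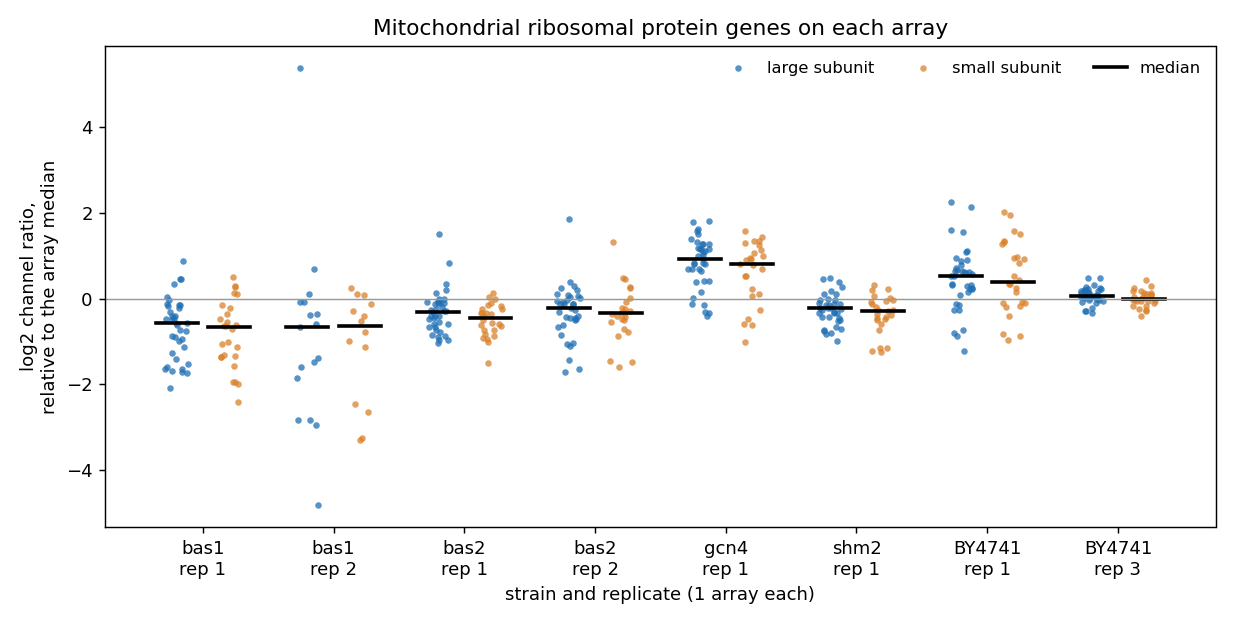
Ratio of each member assigned to a subunit on each array. Strains and replicates run along the x axis, and the y axis gives the log2 channel ratio relative to the array median. Each point is 1 gene, coloured by subunit, and the bars mark the median of each subunit. These medians lie below 0 on the bas1, bas2 and shm2 arrays (-0.67 to -0.23). They lie highest on the gcn4 array (large 0.93, small 0.82).

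The count of members on each side of the middle followed these medians. Negative ratios were found for 55 of 65 members on bas1 replicate 1, 26 of 32 on bas1 replicate 2, 58 of 65 on bas2 replicate 1, 44 of 61 on bas2 replicate 2 and 50 of 63 on shm2. On gcn4 10 of 64 were negative, on BY4741 replicate 1 17 of 65 and on BY4741 replicate 3 23 of 65. Spread differed as well. The SD over members was 0.737 and 1.76 on the bas1 arrays, 0.662 on gcn4, 0.775 on BY4741 replicate 1 and 0.188 on BY4741 replicate 3.

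No member passed limma's moderated test after Benjamini-Hochberg adjustment over all genes, in any of the 5 strains or in any of the 5 differences between strains tested, and neither did any other gene (0% of genes in each comparison). The named members below are therefore described by their values. In bas1, 11 of 32 members had an unadjusted p under 0.05, against 16.9% of all genes, and all 11 were negative. In bas2 these were 7 of 61 members (5.55% of all genes), all negative, and in gcn4 9 of 64 (11.5% of all genes), all positive. In shm2 it was 1 of 63 (4.72%) and in BY4741 0 of 65 (3.37%).

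In the bas1 strain, 21 of 32 members with a value on both arrays were negative on both, against 25.3% of all genes, and 3 were positive on both, against 35.7%. Both arrays were at -1 or lower for 6 of the 32, against 3.25% of genes. MRPL16 (uL16m), whose bacterial counterpart lies beside the peptidyl transferase centre, stood at -1.65 and -2.96, a mean of -2.30 ± 0.42 (SE, n = 2, limma adjusted p = 0.268). RSM27 (mS33), a small-subunit protein known only from mitochondria, stood at -1.37 and -3.26 (-2.32 ± 0.51, limma adjusted p = 0.268). Both were negative on each bas1 array, but the replicate 2 values are less sure. The spots of MRPL16 there read -4.38 and -1.53, against -1.63 and -1.67 on replicate 1, and RSM27 had 1 spot with a value.

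The lowest bas1 mean of 1 sign was that of MRPL28 (mL40), at -2.49 ± 1.05 (SE, n = 2), and it rested on replicate 2, with -0.16 on replicate 1 and -4.83 on replicate 2. Its replicate 2 spots read -3.80 and -5.87. MRPL24 (bL28m) stood at -1.71 and -2.83, MRP17 (bS6m) at -1.07 and -3.31 (replicate 2 spots of -2.63 and -3.98), and MRP13 (mS44) at -1.57 and -2.45. At the other end were MRPL3 (mL44), a large-subunit protein related to ribonuclease III, at 0.46 and 0.68, MRP1 (mS43) at 0.30 and 0.24, and RSM7 (uS7m) at 0.27 and 0.08. MRPL6 (uL6m) was at -0.57 on replicate 1 and at 5.39 on replicate 2, where 1 of its spots had a value. With both bas1 arrays turned in sign, the bas1 median over the 32 members was 0.53 in place of -0.53.

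In the bas2 strain, 43 of 61 members were negative on both arrays, against 29.1% of all genes, and 6 were positive on both, against 31.4%. MRPL50 (bL9m), a large-subunit protein, stood at -0.85 and -1.73 (-1.29 ± 0.35, SE, n = 2, limma adjusted p = 0.780). MRPL16 was low here too, at -0.88 and -1.64, with replicate 2 spots of -2.58 and -0.70. The lowest mean was that of RSM22, a methyltransferase-related protein first assigned to the small subunit, at -0.38 and -2.43. Its spots on replicate 2 read -1.47 and -3.39.

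Above the middle on both bas2 arrays were MRP49 (mL61) at 1.50 and 0.39, MRPL39 (bL33m) at 0.82 and 0.09 and MRP2 (uS14m) at 0.03 and 0.48. The first pair rested on spots that disagreed on replicate 1. MRP49 read 3.81 and -0.82 there, and MRPL39 2.47 and -0.83. Spots of a member lay over 1 apart in 18 of 471 pairs over all arrays, with 5 of 29 pairs on bas1 replicate 2, 3 of 65 and 6 of 60 on the bas2 arrays, 2 of 64 on gcn4, 2 of 61 on shm2 and 0 on the other arrays. The bas2 median was -0.31 without replicate 1, whose labels conflict, and -0.40 without replicate 2.

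On the single gcn4 array the members lay highest. Ratios of 1 or higher were found for 26 of 64 members, against 13.2% of all genes, with 17 of them in the large subunit. MRPL32 (bL32m), which is matured inside mitochondria by the m-AAA protease, stood at 1.80, MRPL38 (uL14m) at 1.78 and MRPL44 (mL53) at 1.63, the mean of spots over 1 apart. MRP7 (bL27m) stood at 1.59, MRPS28 (uS15m) at 1.57 and MRPL22 (uL22m) at 1.51. The lowest were MRP2 at -1.004, RSM7 at -0.62 and MRP4 (uS2m) at -0.61, all of the small subunit.

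On the single shm2 array most members lay close below the middle, with quartiles of -0.50 and -0.04. RSM10 (uS10m) stood at -1.26, MRPS8 (uS8m) at -1.23, MRPS16 (bS16m) at -1.15 and MRPS35 (mS45) at -1.14. These 4, all small-subunit genes, were the only members at -1 or lower. They make up 6.35% of 63 members, not above the 7.62% of all genes at that level. Each mean included 1 spot above -1. The spots of RSM10 read -1.51 and -0.998 and those of MRPS8 -0.78 and -1.67. Those of MRPS16 read -0.66 and -1.63 and those of MRPS35 -1.46 and -0.83. Among the 13 proteins of other symbols, large-subunit RML2 (-1.05) and small-subunit PET123 (-1.27) also lay at that level. The split between subunits was not tested. RSM22, at 1.62 on 1 spot with a value, was the highest member, followed by MRPL3 at 0.48 and MRPL38 at 0.46. RSM22 thus held the highest shm2 ratio of the members and their lowest ratio on bas2 replicate 2.

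In BY4741, 35 of 65 members were positive on both arrays, against 32.1% of all genes, and 10 were negative on both, against 32.2%. The arrays differed in range: 13 members were at 1 or higher on replicate 1 and 0 on replicate 3. MRPL32 stood at 2.25 and 0.03, MRPL44 at 2.13 and 0.14 and RSM18 (bS18m) at 2.01 and 0.10. MRPL19 (uL11m), the protein at the base of the factor-binding stalk, stood at -0.87 and -0.29. MRP4 stood at -0.83 and -0.18 and MRPS12 (uS12m), a protein of the decoding site, at -0.88 and -0.06. The positive BY4741 median therefore came mostly from replicate 1, and over the members the BY4741 arrays correlated with Pearson's r = 0.22 (n = 65 genes, which are not independent).

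**Figure D2:**
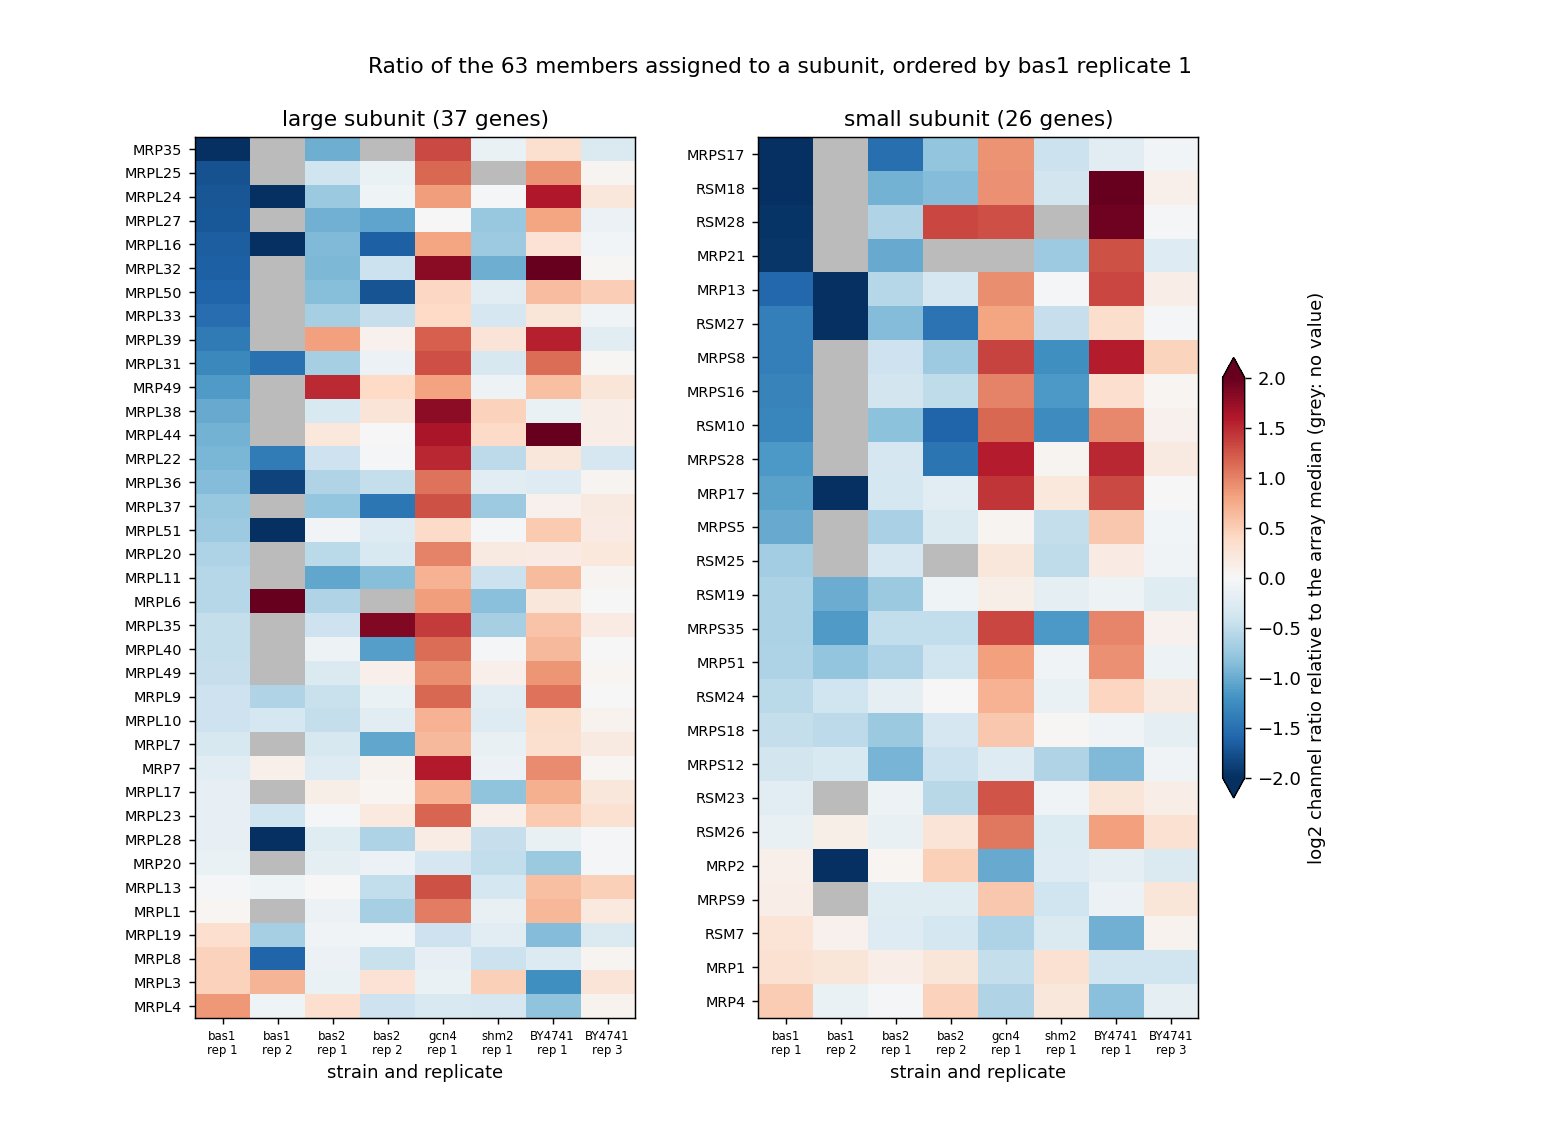
Ratio of the 63 members assigned to a subunit (rows, large subunit left and small subunit right, ordered by bas1 replicate 1) on each array (columns), as the log2 channel ratio relative to the array median on a colour scale from -2 to 2, with grey for no value. Most rows with a value are blue on the bas1 and bas2 arrays and red on gcn4 and BY4741 replicate 1. On bas1 replicate 2 many rows are grey. The bottom rows of each panel show the opposite colours on bas1 replicate 1, gcn4 and BY4741 replicate 1.

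The subunits were set against each other on every array. The large-subunit median was -0.57, -0.66, -0.32 and -0.23 on the bas1 and bas2 arrays, 0.93 on gcn4, -0.23 on shm2 and 0.53 and 0.06 on the BY4741 arrays. The small-subunit median was -0.67, -0.65, -0.45, -0.35, 0.82, -0.29, 0.38 and -0.01 on the same arrays in the same order. Large minus small was positive on 7 of 8 arrays and ran from -0.01 on bas1 replicate 2 to 0.15 on BY4741 replicate 1, with a median of 0.10 and an SD over arrays of 0.0509. The subunit medians had the same sign on every array but BY4741 replicate 3, over a range from -0.67 to 0.93. The gap was not tested.

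The sign of that small gap depended on which genes were counted. Over the 16 large and 14 small members with a value on all 8 arrays, large minus small ran from -0.38 on bas1 replicate 2 to 0.20 on gcn4 and was positive on 6 arrays. With the 13 ribosomal proteins of other symbols added, the gap taken over strain means was -0.04 in bas1, -0.08 in gcn4, -0.01 in shm2 and -0.06 in BY4741. The bas2 gap moved by less than the spread between replicates. In the cytosolic ribosome, RPL minus RPS genes gave a median gap between -0.26 and 0.18, positive on 2 of 8 arrays. The gap over all members (-0.01 to 0.15) lay within this range, and that over the members with a value on all arrays went beyond it at both ends.

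Members negative on both arrays were split between the subunits in a like way in bas1 and bas2, and the split was less even in BY4741. In bas1, 11 of 17 large and 9 of 14 small members were negative on both arrays, against the 25.3% of all genes. In bas2 these were 24 of 35 large and 18 of 24 small members, against 29.1%. In BY4741, 22 of 37 large and 11 of 26 small members were positive on both arrays, against 32.1%, and 3 large and 7 small members were negative on both, against 32.2%. None of these counts was tested between subunits.

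The first replicates of bas1 and BY4741 gave opposite signs for most members. A negative ratio on bas1 replicate 1 with a positive one on BY4741 replicate 1 was found for 47 of 65 members, against 31.7% of all genes, and the opposite for 9 of 65, also against 31.7%. Over the members these arrays correlated with r = -0.61 (n = 65 genes), over all genes with r = -0.35. RSM18 stood at -1.99 on bas1 replicate 1 and 2.01 on BY4741 replicate 1, RSM28 (mS46) at -1.95 and 1.95, and MRPL32 at -1.64 and 2.25. In each of them the sign was opposite on these arrays. With bas1 turned in sign, 1 of 65 members was negative on bas1 and positive on BY4741, against 18.2% of all genes, and 8 were the opposite, against 18.3%. The opposite signs of most members thus rest on the deposited sign of bas1 replicate 1.

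**Figure D3:**
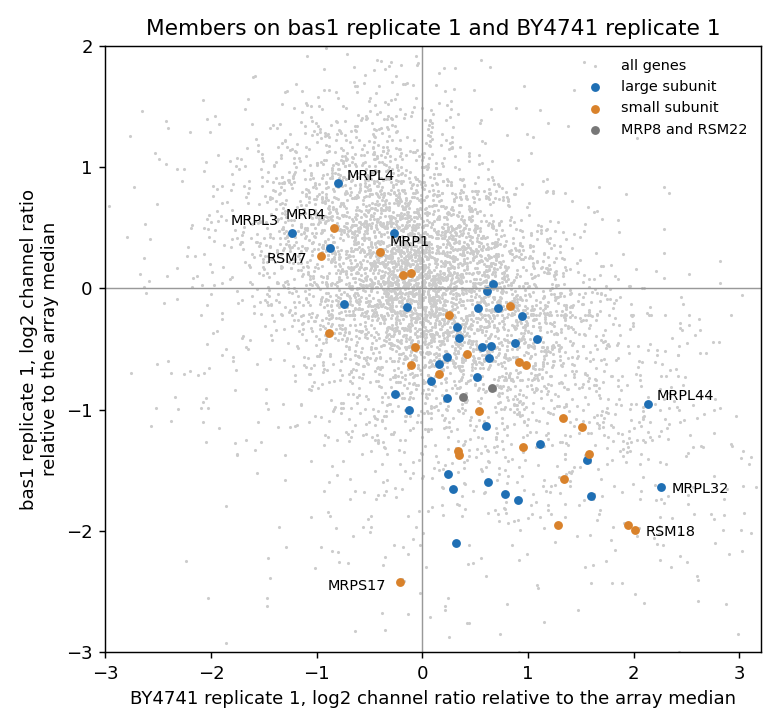
Log2 channel ratio relative to the array median on bas1 replicate 1 (y axis) against BY4741 replicate 1 (x axis), with all genes in grey and the members coloured by subunit. Most members lie in the lower right, where bas1 is negative and BY4741 positive (47 of 65), and 9 lie in the upper left; with bas1 turned in sign these quadrants would hold 1 and 8.

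Taking gcn4 as well, 46 of 64 members were positive on BY4741 replicate 1 and on gcn4 and negative on bas1 replicate 1, against 24.7% of all genes. The opposite signs on all of these 3 arrays were found for 8 members, against 25.3% of genes. These 8 are the small-subunit genes MRP1, MRP2, MRP4 and RSM7 and the large-subunit genes MRPL3, MRPL4, MRPL8 and MRPL19. Each subunit thus gave 4 of the 8, and u, b and m names all occur among them. With bas1 turned in sign, 1 of 64 members had the first pattern, against 14.5% of genes, and 2 its mirror, against 13.1%.

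MRP4 stood at 0.50 and -0.14 on the bas1 arrays, -0.02 and 0.46 on bas2, -0.61 on gcn4, 0.22 on shm2 and -0.83 and -0.18 in BY4741. MRP1 stood at 0.30 and 0.24 in bas1, 0.13 and 0.25 in bas2, -0.47 on gcn4, 0.31 on shm2 and -0.40 and -0.40 in BY4741. MRP1 is thus positive on every bas1, bas2 and shm2 array and negative on gcn4 and both BY4741 arrays, the reverse of the list. RSM26 (mS42), which like MRP1 belongs to the manganese superoxide dismutase family, stood at -0.14 and 0.12 in bas1, -0.15 and 0.27 in bas2, 1.06 on gcn4, -0.28 on shm2 and 0.83 and 0.30 in BY4741. These related proteins of 1 subunit had opposite signs on gcn4 and in BY4741.

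Of the 31 members with a value on all arrays, 8 were negative on all 4 bas1 and bas2 arrays and positive on gcn4 and both BY4741 arrays, against 1.76% of all genes. With both bas1 arrays turned in sign, 0 of 31 were so, against 0.126% of genes. The 8 were chosen after their values were seen, and are MRP13, MRP17, MRPL10, MRPL13, MRPL24, MRPL31, MRPL51 and MRPS35. MRPL31 (mL60) is typical, with -1.28 and -1.49 in bas1, -0.67 and -0.12 in bas2, 1.28 on gcn4, -0.32 on shm2 and 1.12 and 0.03 in BY4741. MRPS12 alone kept 1 sign on all 8 arrays (1 of 31, against 6.91% of all genes), negative between -0.93 on bas2 replicate 1 and -0.06 on BY4741 replicate 3. RSM19 (uS19m), its neighbour on the chromosome, had the same sign on 7 of 8 arrays.

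Each deletion strain was then set against BY4741. In bas1 the members stood lower: the median difference was -0.74 over 32 members, against 0.11 over all genes, and 24 were lower. The same median was -0.64 for cytosolic ribosomal protein genes (94 of 124 lower), -0.58 for respiratory chain genes and -0.77 for ATP synthase genes. Lists of other mitochondrial translation genes, with 2 to 4 genes tested each, had medians of either sign (-0.92 to 3.47). No member passed the adjusted test, and 9 of 32 had an unadjusted p under 0.05 (14.4% of all genes), all lower. The arrays of bas1 lay below those of BY4741 without overlap for 21 of 32 members, against 22.4% of all genes, and above them for 4, against 31.4%. MRPL24 stood at -1.71 and -2.83 in bas1 and 1.60 and 0.22 in BY4741, a difference of -3.18 ± 0.68 (SE, limma adjusted p = 0.338). MRP17 stood at -1.07 and -3.31 in bas1 and 1.33 and 0.01 in BY4741 (-2.86 ± 0.88, limma adjusted p = 0.338). MRPL3, at 0.46 and 0.68 in bas1 and -1.23 and 0.26 in BY4741, differed by 1.06 ± 0.60, and MRP4 by 0.69 ± 0.48.

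The array titles use 2 wordings for growth, and each wording holds 1 bas1, 1 bas2 and 1 BY4741 array. Within the first, which holds replicate 1 of each, the bas1 minus BY4741 median was -1.17, with 54 of 65 members lower. Within the second it was -0.63, with 26 of 32 lower. With both bas1 arrays turned in sign, the median difference was 0.48 in place of -0.74, so its direction rests on the deposited signs. Without bas1 replicate 1, 9 members passed the adjusted test in this difference and 10 in the bas1 ratio, on a lone array with the widest spread, where 641 of 3447 genes passed.

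In bas2 the median difference from BY4741 was -0.59 over 61 members, against -0.08 over all genes, with 51 lower. No member passed, and 4 of 61 had an unadjusted p under 0.05 (1.85% of all genes), all lower. The arrays lay lower without overlap for 40 of 61 members, against 20.8% of all genes, and higher for 4, against 19.8%. RSM18 stood at -0.95 and -0.86 in bas2 and 2.01 and 0.10 in BY4741 (-1.96 ± 0.76, SE, limma adjusted p = 0.846). MRPL50 stood at -0.85 and -1.73 in bas2 and 0.62 and 0.49 in BY4741 (-1.84 ± 0.50). MRP4 (0.72 ± 0.48) and MRP1 (0.59 ± 0.36) differed the other way. Within the title wordings the median difference was -0.83 (55 of 65 lower) and -0.37 (46 of 61 lower). Without BY4741 replicate 3 it was -0.86 and without BY4741 replicate 1 -0.40.

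In gcn4 the median difference from BY4741 was 0.47 over 64 members, against -0.01 over all genes, with 53 higher. No member passed, and 2 had an unadjusted p under 0.05 (3.49% of all genes). The gcn4 array lay above both BY4741 arrays for 39 of 64 members, against 29.4% of all genes, and below both for 4, against 33.7%. MRPL38 stood at 1.78 in gcn4 and at -0.13 and 0.13 in BY4741 (1.78 ± 0.55, SE, limma adjusted p = 1.000). MRPL22 stood at 1.51 in gcn4 and at 0.23 and -0.33 in BY4741 (1.56 ± 0.54). MRP2 differed by -0.77 ± 1.14 and RSM22 by -0.26 ± 0.99.

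The gcn4 array resembled BY4741 replicate 1, with r = 0.69 over 64 members and 0.64 over all genes. Against BY4741 replicate 1 alone, the array of the same title wording, the median difference was 0.26 (47 of 64 higher), and against replicate 3 it was 0.81. Without centring it was -0.27, because the medians removed from gcn4 and BY4741 replicate 1 were -0.26 and 0.65. The direction of the gcn4 difference is therefore one relative to the middle gene of each array.

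In shm2 the median difference from BY4741 was -0.48 over 63 members, against 0.00 over all genes, with 53 lower. No member passed, and 2 of 63 had an unadjusted p under 0.05 (3.79% of all genes). The shm2 array lay below both BY4741 arrays for 42 of 63 members, against 36.7% of all genes, and above both for 7, against 36.6%. MRPS8 stood at -1.23 in shm2 and 1.58 and 0.44 in BY4741 (-2.23 ± 0.69, SE, limma adjusted p = 1.000). MRPL32 stood at -0.98 in shm2, on 1 spot with a value, and at 2.25 and 0.03 in BY4741 (-2.12 ± 1.07). RSM22 (1.32 ± 0.99) and MRPL3 (0.96 ± 0.73) differed the other way. Against BY4741 replicate 3, the array of the same title wording, the median was -0.34 (48 of 63 lower), and against replicate 1 it was -0.78.

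All 4 differences share the BY4741 arrays, so a sign they have in common is not separate evidence. Between bas1 and bas2, which share no array, the median difference over 31 members was -0.36, against -0.02 over all genes, and 2 of 31 had an unadjusted p under 0.05 (2.3% of all genes). MRP13 differed by -1.56 ± 0.59 and MRPL24 by -1.86 ± 0.68 (SE, n = 2 each, limma adjusted p = 0.914 for both). With 1 replicate left out at a time the median difference ran from -0.48 to -0.10, and with arrays scaled to a common spread it was -0.01.

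The u, b and m name classes differed in how far they lay from the middle. The 14 members shared with bacteria had medians of -1.38 and -1.73 on the bas1 arrays, -0.60 and -0.42 on bas2, 1.00 on gcn4, -0.18 on shm2 and 0.93 and 0.03 in BY4741. The 27 universal members had -0.47 and -0.46 on bas1, -0.41 and -0.35 on bas2, 0.69 on gcn4, -0.29 on shm2 and 0.23 and 0.00 in BY4741. The 22 mitochondrial members had -0.67, -1.13, -0.28, -0.13, 0.96, -0.30, 0.59 and 0.14 in the same order of arrays. On bas1 replicate 1 the class order was the same in each subunit for b against u names: -1.42 against -0.42 in the large subunit and -1.34 against -0.56 in the small one. On bas1 replicate 2 the b class rested on 6 members.

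**Figure D4:**
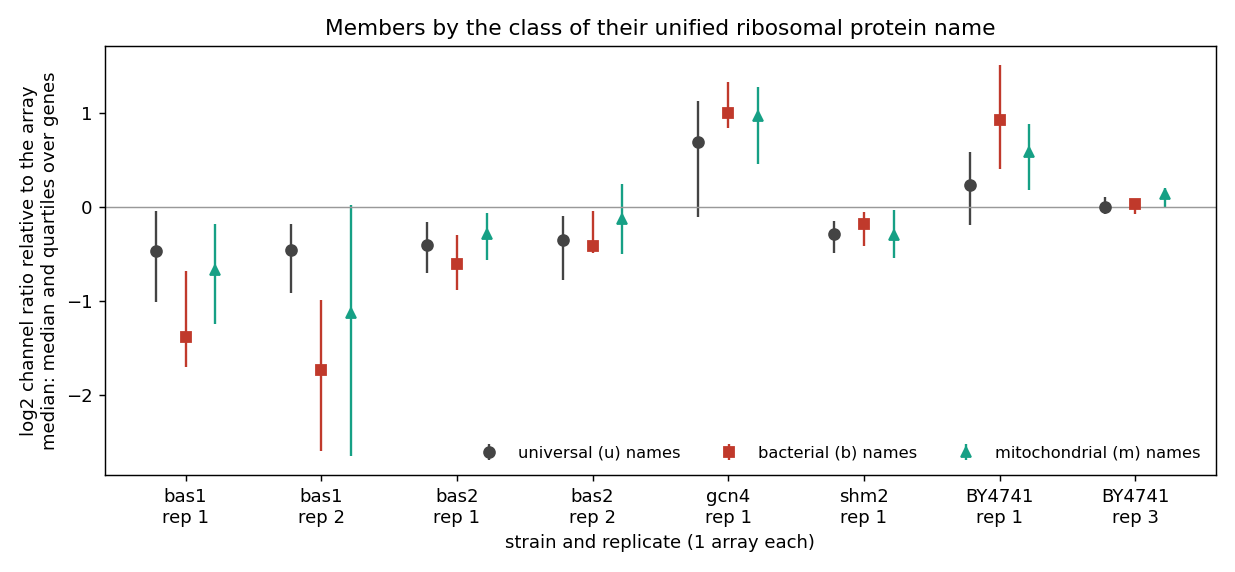
Median (points) and quartiles (bars) of the log2 channel ratio relative to the array median on each array, for members with universal, bacterial and mitochondrial unified names. The bacterial class lies lowest on both bas1 arrays (-1.38 and -1.73) and highest on BY4741 replicate 1 (0.93), and the classes lie close together on shm2 and BY4741 replicate 3.

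Coding length differed between the name classes, and over members it moved with the ratio mainly on the bas1 arrays. The members are short genes, with a median coding length of 699 bases against 1269 for all genes, and b members are shorter (510) than u (744) and m members (795). On bas1 replicate 1 the Spearman correlation of ratio and length was 0.41 over members and 0.13 over all genes, and on bas1 replicate 2 it was 0.50 and 0.13. On gcn4 it was -0.05 over members and -0.39 over all genes, and on BY4741 replicate 1 -0.03 and -0.25. Short genes as a whole therefore lay higher on the last 2 arrays.

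With a smooth curve of coding length removed from each array, the member medians were -0.60 and -0.42 on bas1, -0.41 and -0.33 on bas2, 0.48 on gcn4, -0.27 on shm2 and 0.25 and 0.00 in BY4741. The shift on gcn4 and on BY4741 replicate 1 was thus about halfway to 0 after that step, and the negative medians of bas1 replicate 1, bas2 and shm2 moved little. The b class then stood at -1.03 and -1.43 on bas1 and 0.83 on BY4741 replicate 1, against -0.33, -0.31 and -0.11 for the u class. That curve follows all genes, whose correlation with length on the bas1 arrays was 0.13, against 0.41 and 0.50 over members. Name class and length were therefore not told apart on those arrays. The 33 members with no value on bas1 replicate 2 stood lower on bas1 replicate 1 (median -1.01) than the 32 with one (-0.45), so values on both bas1 arrays exist for the less shifted members.

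The 13 ribosomal proteins with other symbols, which the rule does not take, had medians of the same sign as the members on all 8 arrays, farther from 0 on bas1 replicate 2, bas2 replicate 2 and both BY4741 arrays and nearer to 0 on the rest. They stood at -0.57 and -1.29 on bas1, -0.28 and -0.49 on bas2, 0.77 on gcn4, -0.21 on shm2 and 0.72 and 0.09 in BY4741. NAM9 (uS4m) stood at 1.37 on gcn4 and SWS2 (uS13m) at 2.21, while IMG1 (bL19m) stood at -0.33 and EHD3 (mS47) at -0.29. Of the 13, all were negative on shm2 and 11 positive on gcn4, against 50% of all genes each. No gene among them passed the adjusted test in a strain or a difference.

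The genes of cytosolic ribosomal proteins, which make up the ribosome of the rest of the cell, were set beside the members. These 127 genes had medians of -0.06 and 0.06 on bas1, 0.03 and 0.64 on bas2, 0.93 on gcn4, 0.60 on shm2 and 1.10 and 0.29 in BY4741. On gcn4 and BY4741 replicate 1 both ribosomes lay above the middle. On bas2 replicate 2 and shm2 the cytosolic list was positive while the mitochondrial members had medians of -0.31 and -0.26. Against BY4741 the cytosolic median difference was -0.36 in bas2, 0.26 in gcn4 and -0.06 in shm2. The difference between the lists was not tested.

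The products of mitochondrial translation join nuclear-coded proteins in the respiratory chain and in ATP synthase. The 24 nuclear genes of the respiratory chain had medians of -1.01 and -0.88 on bas1, -0.99 and -0.55 on bas2, 0.17 on gcn4, -0.74 on shm2 and -0.03 and -0.37 in BY4741. The 11 genes of ATP synthase had -1.05, -0.80, -0.94, -0.29, 1.08, -0.34, 0.55 and -0.33 in the same order of arrays. Both lists were negative on every array where the members were, and ATP synthase was positive with them on gcn4 and BY4741 replicate 1. Median differences from BY4741 were -0.75 (respiratory chain) and -0.64 (ATP synthase) in bas2, against -0.59 for the members. In gcn4 they were 0.41 and 0.45, against 0.47, and in shm2 -0.52 and -0.40, against -0.48.

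**Figure D5:**
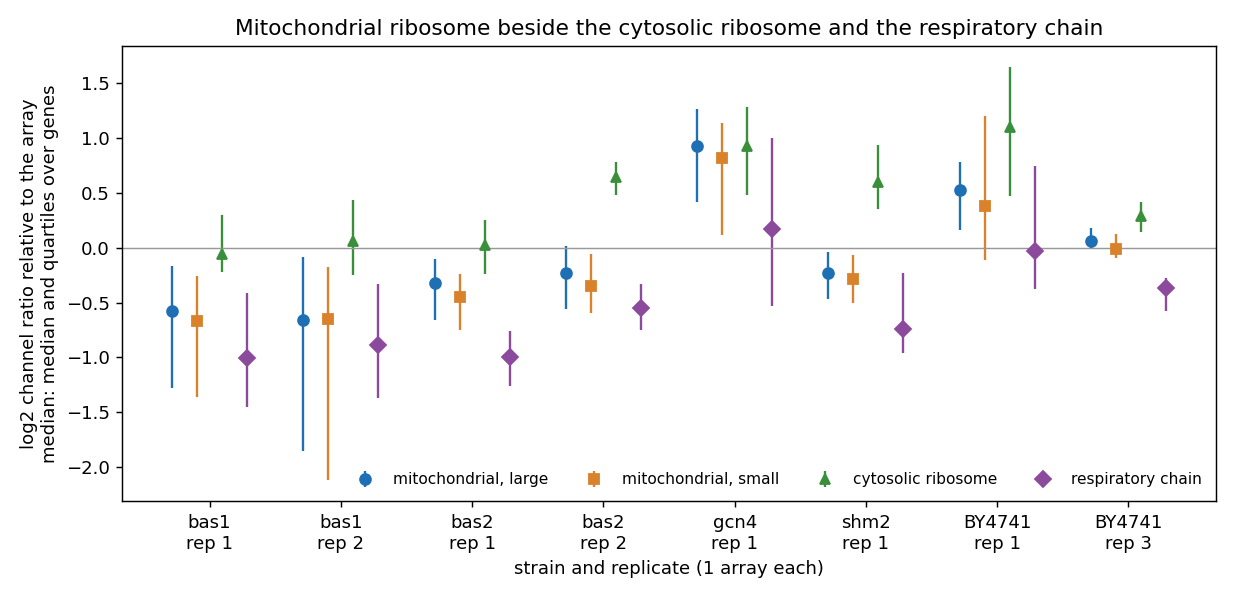
Median (points) and quartiles (bars) of the log2 channel ratio relative to the array median on each array. The lists are large-subunit members, small-subunit members, cytosolic ribosomal protein genes and respiratory chain genes. The members of both subunits lie below 0 on bas1, bas2 and shm2 and above 0 on gcn4 and BY4741 replicate 1. The respiratory chain lies above 0 on gcn4 only (0.17). The cytosolic ribosomal protein genes lie at or above 0 on nearly every array (-0.06 on bas1 replicate 1).

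Other parts of the mitochondrial translation apparatus had gcn4 medians of either sign. The 9 translation factors, among them MEF1 and TUF1 (elongation) and IFM1 (initiation), had medians of -0.74 on bas1 replicate 1, -0.80 and -0.42 on bas2, -0.81 on gcn4, -0.49 on shm2 and -0.46 and -0.14 in BY4741. On bas1 replicate 2, where 3 of the 9 had a value, their median was 0.86, the only positive one. On gcn4 2 of 8 were positive. No difference between these lists and the members was tested. The 13 aminoacyl-tRNA synthetases stood at -0.24 on gcn4, the 13 activators of single mitochondrial mRNAs at 0.22, the 8 assembly genes at 0.45 and the 6 genes of mitochondrial transcription and RNA turnover at -0.20. These lists hold longer genes, with median coding lengths from 1314 to 2562 bases, and with the length curve removed the gcn4 medians were -0.56 for the translation factors, -0.03 for the synthetases, 0.32 for the activators, 0.58 for the assembly genes and 0.09 for transcription and RNA turnover, against 0.48 for the members. The assembly genes then lay above the members, and the last list changed sign. In each of these lists 0 genes passed the adjusted test in any strain.

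Over the 8 arrays, members resembled one another. Among the 31 members with all values, the Pearson correlation with the median of the other members had a median of 0.83, and 19 exceeded 0.8. Of the 3137 other genes with all values, 343 (10.9%) exceeded 0.8. The most alike were RSM24 (mS35, 0.98), MRPL10 (uL15m, 0.97) and MRPL23 (uL13m, 0.97). The 6 members under 0 were MRPL19, MRPL4, MRPL3, RSM7, MRP4 and MRP1 (-0.89), all of which are among the 8 with mirror signs. These correlations describe 8 points that share strains, and the largest contrast among them is of 2 arrays (gcn4 and BY4741 replicate 1) with the rest.

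The 10 other genes most like the members were STF2 (0.98), SIL1, COX6, ATP11, YOR131C, RPN8, SEC28, DDR48, YPD1 and QCR10 (0.96). STF2, which encodes a stabilising factor of the ATP synthase, stood at -1.89 and -2.22 in bas1, -1.67 and -1.03 in bas2, 1.55 on gcn4, -0.86 on shm2 and 1.35 and -0.24 in BY4741. COX6, a cytochrome c oxidase subunit, stood at -1.29 and -1.61, -0.88 and -0.62, 1.79, -0.81, and 1.37 and -0.45 on the same arrays. ATP11 encodes an assembly chaperone of ATP synthase and QCR10 a subunit of the cytochrome bc1 complex. RPN8 (proteasome), SEC28 (COPI coat), SIL1 (an exchange factor of the endoplasmic reticulum), YPD1 (osmosensing phosphorelay) and DDR48 (stress protein) are not mitochondrial translation genes.

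The 2 members without a unified name followed the list in part. MRP8, whose protein is not a known part of the ribosome, stood at -0.82 and -0.29 in bas1, -0.46 and 0.13 in bas2, 1.31 on gcn4, -0.72 on shm2 and 0.66 and 0.05 in BY4741, with r = 0.90 to the median of the other members. RSM22 stood at -0.90 on bas1 replicate 1, -0.38 and -2.43 in bas2, 0.04 on gcn4, 1.62 on shm2 and 0.39 and 0.21 in BY4741. Leaving both out changed no sign of a median over members.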

How the data were processed

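The deposited values are log2 channel ratios per spot of 8 two-colour arrays. Per the labels, a GenePix 4000B scanner and GenePix Pro 3.0 software read the spots. How background, filters, dyes, ratio direction and normalization were handled is not given in the sources used here. Spot signals and counts were not used, so depth and signal over background are unknown.

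Spots were named by the platform annotation, updated through RefSeq (11128 of 12800 spots; R64 table, used for names, unified names, neighbours and coding lengths, not for positions). Spots were averaged per gene, and each array was centred on its median over genes. All 5539 genes were fitted with limma 3.58.1 in R 4.3.3 (lmFit, eBayes, two-sided) over 8 arrays with 5 strain means. The strains shared 1 estimate of the spread (residual degrees of freedom up to 3, prior SD 0.545 with prior degrees of freedom of 2.30), which the single arrays of gcn4 and shm2 borrow. P-values were adjusted by Benjamini-Hochberg over all genes with values on the arrays compared, with a threshold of 0.05. Errors are standard errors of the fit. The fit was also run on simulated ratios with known changes in bas1, to check the size of its estimates. That simulation gave each gene the same spread on all arrays, unlike the real arrays, so it does not check the p-values reported here. Summaries used pandas 2.3.3, and the coding-length curve was a lowess of statsmodels 0.14.6 with a fraction of 0.3.

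The members and the gene lists were chosen with earlier results of these data known. The named members are, per strain, the 3 highest and 3 lowest means of 1 sign. Per difference from BY4741 they are the 2 highest and 2 lowest without overlap. To these were added members past the test, members of 1 sign on all arrays, MRP8, RSM22 and the 10 genes most like the member median. Other members named in the text were chosen after their values were seen, as examples of a count. Alternatives were no centring, scaling to a common median absolute deviation, at least 2 spots, leaving out spots within 0.003 of a ratio of 1, leaving out each replicate, fits of the groups alone, blocks for replicate number and title wording, turned bas1 signs, the length curve and 3 other member sets. Leaving out replicate 2 of bas1 and of bas2 together was added after seeing the data. Replicate number 1 occurs in every strain and number 2 in bas1 and bas2 only, and no label says that these numbers mark a shared culture or day.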

Additional observations from a re-analysis of the deposited data

Results flagged for a closer look

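List medians and members named for their differences are given here where the arrays moved one way in a deletion strain and the other way in BY4741. Other members, such as MRP13 and MRPL31 in bas1, met the same rule and are not repeated. The opposite direction of the list medians was not tested, and no single member passed limma's adjusted test for its difference.

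The mean over arrays of the member median differed from that in BY4741 by -0.917 in bas1 (large-subunit members -0.913). For bas2 the difference was -0.640 (large-subunit members -0.571), and for shm2 it was -0.549 (large-subunit members -0.528). Every array of these strains had a negative member median and both BY4741 arrays a positive one. On BY4741 replicate 3 that median was 0.05. The bas1 mean joins a median over 65 members on replicate 1 with that over 32 members on replicate 2. Over the 32 members with a value on all bas1 and BY4741 arrays, the median difference was -0.74. By subunit, medians of single-gene differences were -0.70 (large) and -0.71 (small) in bas1, -0.59 and -0.60 in bas2 and -0.48 and -0.48 in shm2. The small-subunit median was 0.38 and -0.01 on the BY4741 arrays, so it was not of 1 sign there.

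Among single members, MRPL24 differed by -3.18 and MRP17 by -2.86 in bas1, with negative ratios on both bas1 arrays and positive ones on both BY4741 arrays. RSM18 differed by -1.96 and MRPL50 by -1.84 in bas2 in the same way. MRP1 differed by 0.59 in bas2, positive on both bas2 arrays and negative on both BY4741 arrays. On the single shm2 array, MRPS8 differed by -2.23 and MRPL32 by -2.12. With both bas1 arrays turned in sign, the MRPL24 and MRP17 differences were 1.36 and 1.52.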

How the results depend on the processing

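The count of members past the adjusted test was 0 in all 10 comparisons under every alternative except leaving out bas1 replicate 1. Over the fits that left out 1 replicate it ran from 0 to 10 for the bas1 ratio, from 0 to 9 for bas1 minus BY4741 and from 0 to 2 for bas1 minus bas2. Without centring the median over members was -0.81 in bas1, 0.60 in gcn4 and 0.79 in BY4741, and the median difference from BY4741 was -1.50 for bas1, -1.14 for bas2, -0.27 for gcn4 and -1.10 for shm2. Also without centring, MRP1 in bas1 (-0.0082), RSM7 in bas1 (-0.10), MRPS12 in BY4741 (0.014) and MRP4 in bas1 minus BY4741 (-0.079) changed sign. Leaving out 1 replicate gave medians from 0.050 to 0.52 in BY4741 and median differences from BY4741 of 0.26 to 0.81 for gcn4, -0.86 to -0.40 for bas2 and -0.78 to -0.34 for shm2. The bas1 gap of large minus small then ran from -0.012 to 0.094. With both bas1 arrays turned in sign, the bas1 median was 0.53 and its gap -0.089, and the median difference was 0.48 from BY4741 and 1.02 from bas2. Under that setting the bas1 ratios were 2.49 for MRPL28, 2.32 for RSM27, 2.30 for MRPL16, -0.57 for MRPL3, -0.27 for MRP1 and -0.18 for RSM7, and the bas1 minus BY4741 differences 1.36 for MRPL24, 1.52 for MRP17 and -0.085 for MRPL3. The gcn4 median was 0.64 at a common median absolute deviation, 0.48 with the length curve removed, 0.61 with the replicate block and 0.58 with the title wording block. With the length curve removed, RSM22 in gcn4 minus BY4741 stood at 0.076.

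The gap of large minus small moved under several settings. At a common median absolute deviation it was 0.16 in bas1 and 0.25 in bas2, and the bas1 minus bas2 median was -0.0098. With at least 2 spots the bas1 gap was -0.0086, and with the length curve removed the BY4741 gap was 0.014. With the replicate block it was 0.081 in bas2, -0.14 in shm2 and 0.19 in BY4741. With the title wording block it was 0.093 in bas2, 0.17 in gcn4 and -0.11 in shm2. Adding the proteins of other symbols gave -0.041 in bas1, -0.075 in gcn4, -0.0082 in shm2 and -0.065 in BY4741. Over the members with values on all arrays it was 0.093 in bas2, 0.20 in gcn4 and -0.084 in shm2. The cause of these moves was not tested. Both blocks use only genes with values on all 8 arrays. The replicate block changed no call. Over all genes the count past the adjusted test, 0 in each comparison as reported, was 13 in gcn4 and 1 in bas1 without centring, and 122 in gcn4 without bas1 replicate 2 and bas2 replicate 2 together. In gcn4 minus BY4741 it was 21 in that setting and in the fit of those groups alone. Without bas1 replicate 1 it was 641 in bas1, 493 in bas1 minus BY4741 and 158 in bas1 minus bas2. Elsewhere it was at most 4. Bas1 and bas2 share replicate numbers 1 and 2, and same-numbered arrays correlated over all genes with r = 0.63 and 0.49, but 2 pairs do not show a pairing. Fits of the group alone could not be made for the gcn4 and shm2 ratios, which have 1 array each. Of the values for summaries, 427 stayed within the spread between replicates and 42 did not.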
